A study of Mus musculus with 6 samples.

Results

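The genes described here are 10 transcription factor genes that steer helper T cell lineages or work beside RORγt, the lineage factor of type 17 T cells. They were taken by symbol from a table of 15944 genes, and each of the 10 symbols had 1 row. The libraries are bulk RNA-seq of Tregs, the regulatory CD4+ T cells that carry Foxp3 and restrain immune responses, from spleens of naive C57BL/6 mice. All cells came from mice with a red fluorescent reporter of Foxp3 and a green one of RORγt, and, after magnetic enrichment of CD4+ cells, were sorted as CD3+ CD4+ and Foxp3 reporter positive. In 3 libraries the cells were positive for the RORγt reporter (RORγt+), and in the other 3 they were negative for it and positive for the chemokine receptor CCR6 (CCR6+ RORγt−, below RORγt−). The 2 gates thus differ in the reporter and in the use of CCR6. The sources used here do not give age, sex or pooling of spleens. They also do not say whether libraries of the 2 groups came from the same mice. Nothing states that libraries of a group came from different mice, so p-values measure only the spread between libraries, which may be technical.

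RORγt does not act alone in T cells. RORα, encoded by Rora, is a related nuclear receptor that recognises similar DNA sites, while c-MAF, the aryl hydrocarbon receptor AHR, HIF-1α and RUNX1 take part in the type 17 programme in different ways. GATA3 and T-bet, encoded by Gata3 and Tbx21, direct the type 2 and type 1 programmes, and Tregs can express both at lower levels. RUNX proteins bind DNA together with CBFβ, a partner that does not itself contact DNA, and RUNX-CBFβ complexes are also known to sustain Foxp3 expression in Tregs.

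The libraries held between about 9220000 and 14500000 reads, estimated from the value of a single read in each. Foxp3 lay between 10835 and 12609 normalized counts in RORγt+ libraries and between 9790 and 10187 in RORγt− libraries. Values were present for 7 of 7 Treg markers, which alone is no check of identity. Among them Ikzf2, named later, had 6358, 6181 and 1435 in RORγt+ replicates 1 to 3. In RORγt− libraries Ikzf2 had 4784 to 7969. Cd4 and Cd3e overlapped between the groups (8038 to 11673 against 9283 to 12516, and 5409 to 8913 against 6494 to 7523). Ccr6, although only the RORγt− gate required the receptor, had 698 to 900 normalized counts in RORγt+ libraries and 112 to 148 in RORγt− libraries. RORγt+ replicate 3 was the shallowest library and stood apart. Its correlations with the others on the log2 scale were 0.932 to 0.939, against 0.947 to 0.967 among the remaining 5. Fold changes of the factors without it are therefore given below.

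None of the 10 factors passed the threshold of limma, a linear model fitted to all genes (Benjamini-Hochberg adjusted p under 0.05), against 0.564% of all genes (0.320% higher and 0.245% lower in RORγt+ Tregs). At an unadjusted p under 0.05 there were 3, Ahr, Maf and Tbx21, where 10.9% of all genes reached it. Ahr and Maf were higher in every RORγt+ library than in every RORγt− library, as were 8.31% of all genes. Tbx21 and Gata3 were lower in every RORγt+ library, as were 9.81% of all genes. The other 6 factors overlapped between the groups. Of the related genes described below, 12 of 113 passed over all 6 libraries and 15 without RORγt+ replicate 3. Leaving out RORγt+ replicate 1, or any 1 of the 3 RORγt− libraries, left Ccr6 alone among the related genes, and leaving out RORγt+ replicate 2 left none. The median log2 fold change (RORγt+ minus RORγt−, computed on log2 of the value plus 1) was −0.034 over the 10 factors and −0.011 over all genes.

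**Figure D1:**
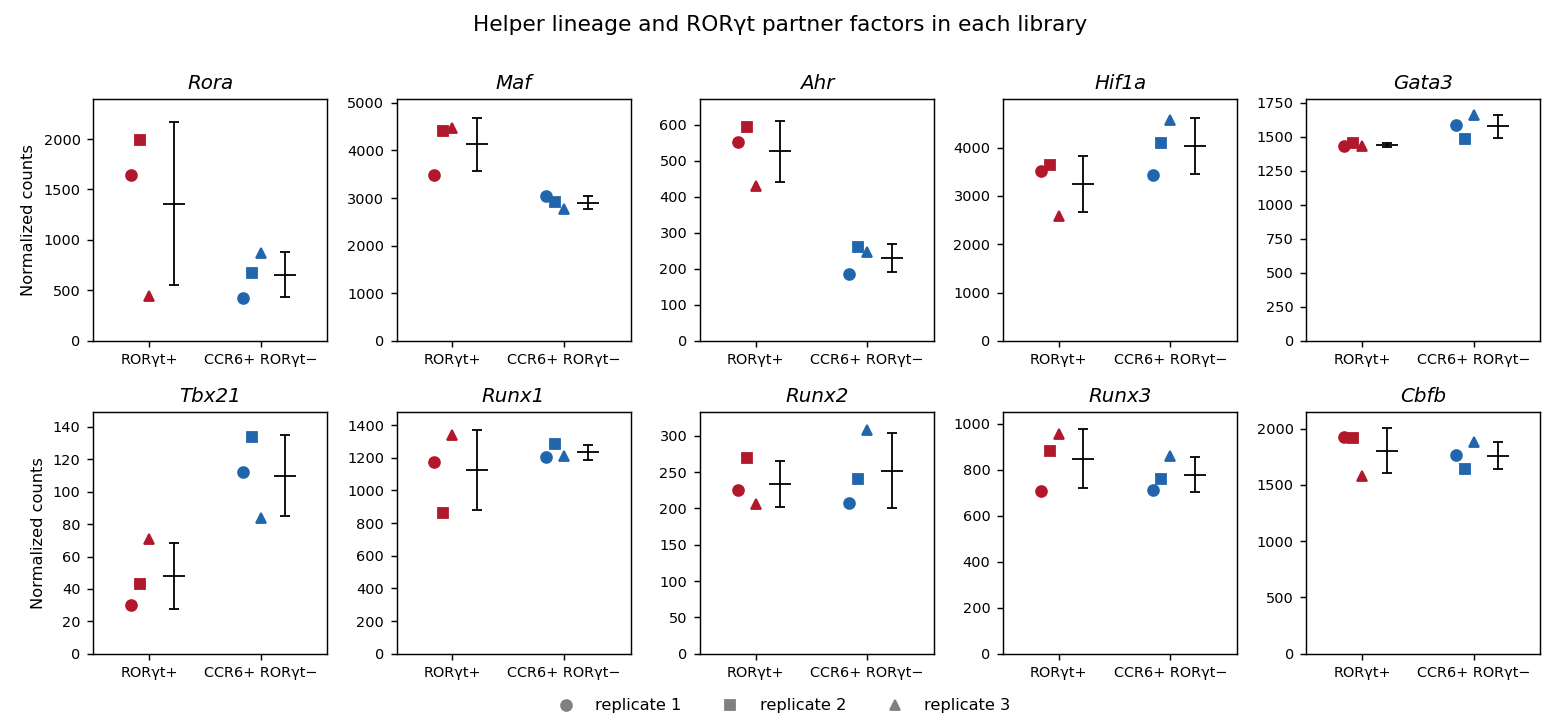
Normalized counts of the 10 factors (vertical axes, from 0) in the 3 RORγt+ and 3 CCR6+ RORγt− libraries, with a symbol for each replicate number and the group mean ± SD beside the points. Ahr and Maf separate upward and Tbx21 downward in the RORγt+ libraries, while Rora ranges from 448.5 to 1988 within them.

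Ahr, which encodes a ligand-activated factor that senses dietary, microbial and environmental compounds, had 553, 594 and 431 normalized counts in RORγt+ replicates 1 to 3. It had 184, 260 and 246 in RORγt− replicates 1 to 3. The lowest RORγt+ library thus lay well above the highest RORγt− library. The means were 526 ± 84.8 and 230 ± 40.1 (SD, n = 3), a 2.29-fold ratio. The log2 fold change was 1.19 ± 0.20 (SE), with a 95% confidence interval of 0.72 to 1.67 and a limma adjusted p of 0.0617. Without RORγt+ replicate 3, the lowest of its group for this gene, the log2 fold change was 1.33 ± 0.18 and the limma adjusted p 0.0356. With libraries weighted by their agreement (array weights) it was 0.0116, and over all alternatives it ranged from there to 0.296. Each value rests on about 179 to 598 reads. The gene lies on the minus strand of chromosome 12 (35497974 to 35535038, GRCm38).

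The difference in Ahr was not shared by the rest of its pathway as a group. Of 10 measured genes among its partners, chaperones, repressor and textbook targets, 1 rose, none fell and 9 did not pass, and the median log2 fold change was 0.04. Gpr15, a homing receptor gene known as an AHR target in T cells, rose with values of 468, 491 and 613 against 129, 162 and 160 (limma log2 fold change 1.79 ± 0.18, adjusted p = 0.0136). Its partner gene Arnt, chosen after its values were seen, stood at 982 ± 21.3 and 987 ± 12.2 normalized counts (SD, n = 3), so that only Ahr of the heterodimer differed beyond overlap. Hsp90ab1, a chaperone gene of the cytosolic receptor, had 18904, 20318 and 25637 against 36213, 28604 and 33596 (limma adjusted p = 0.221). Arnt2, Ptges3 and Entpd1 had log2 fold changes of 0.84, −0.36 and −0.89 with overlapping groups. The target Tiparp, also named later, had 230, 304 and 155 against 160, 142 and 185, and the AHR repressor gene Ahrr had at most 6.01. The targets Cyp1a1 and Cyp1b1 have no row in the table.

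Maf, which encodes the bZIP factor c-MAF, had 3482, 4418 and 4481 normalized counts in RORγt+ replicates 1 to 3, and 3043, 2908 and 2761 in RORγt− replicates 1 to 3. The groups did not overlap, and the RORγt− libraries lay close together (SD 141). The means of 4127 ± 560 and 2904 ± 141 (SD, n = 3) stood in a ratio of 1.42. The log2 fold change was 0.50 ± 0.14 (SE), with a 95% confidence interval of 0.18 to 0.82 and a limma adjusted p of 0.233. Without RORγt+ replicate 3 it was 0.43 ± 0.12 (limma adjusted p = 0.157). Maf was among the most abundant of the factors, above 96.6% of all genes by its mean count. It lies on chromosome 8 (115682942 to 115707794, GRCm38), and 5.38% of its windows of 31 bases are also found in some other gene's transcripts, mainly an antisense model.

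None of 9 measured genes for other MAF proteins and their CNC or BACH partners passed the test, and their median log2 fold change was 0.04. Bach2, which encodes a repressor that holds Tregs in a resting state, averaged 1169 ± 173 and 1150 ± 159 normalized counts (SD, n = 3). It was named after its values were seen. By the naming rule, Nfe2, Mafg, Nfe2l1 and Bach1 had log2 fold changes of −1.32, 0.43, −0.23 and −0.11. Nfe2 was near the floor, at 0.70 and 2.72 normalized counts. None of the 9 separated the groups.

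Rora was the most variable of the factors. It had 1646 and 1988 normalized counts in RORγt+ replicates 1 and 2 but 448.5 in replicate 3, and 429, 667 and 873 in RORγt− replicates 1 to 3. Replicate 3 of the RORγt+ group thus lay within the range of the RORγt− libraries. The means were 1361 ± 809 and 656 ± 222 (SD, n = 3), and the coefficient of variation in the RORγt+ group was 59.4%, where the median over 10333 genes with a mean of at least 50 was 19.996%. The log2 fold change was 0.85 ± 0.55 (SE), with a 95% confidence interval of −0.44 to 2.14 (limma adjusted p = 0.666). Without RORγt+ replicate 3 it was 1.52 ± 0.29 with a limma adjusted p of 0.0769. Leaving out RORγt+ replicate 2 gave 0.45 (limma adjusted p = 0.825), and leaving out RORγt− replicate 1 gave 0.57 (limma adjusted p = 0.939). The gene spans chromosome 9, 68653786 to 69388246 (GRCm38).

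The 3 genes with values most like Rora over the 6 libraries, a comparison made after its values were seen, were the proliferation genes Kif11, Mki67 and Ndc80 (Pearson r of 0.994, 0.994 and 0.993, computed on the log2 scale). Mki67, which encodes the proliferation antigen Ki-67, had 1481, 1918 and 212 normalized counts in RORγt+ replicates 1 to 3 and 251, 476 and 688 in RORγt− replicates 1 to 3. Both genes were therefore lowest or next to lowest in RORγt+ replicate 3 and RORγt− replicate 1, and ordered the RORγt− libraries in the same way. Over the 5 libraries without RORγt+ replicate 3, r between Rora and Mki67 was 0.999. These points share library, depth and scaling, and 356 of 10332 candidate genes (3.45%) had an r above 0.9 with Rora, so the likeness is a description of these libraries. Il1rl1, the gene of the IL-33 receptor, had 1179, 1525 and 361 against 306, 433 and 319, with the same drop in RORγt+ replicate 3. Its limma adjusted p was 0.401 over all libraries and 0.0169 without that one. The drop was not confined to these genes. Clock, named later, had 583, 666 and 174 against 270, 351 and 548. The ratio of RORγt+ replicate 3 to the mean of replicates 1 and 2 was 0.247 for Rora. It was lower still for 2.68% of 10333 genes with a mean of at least 50. That library also had 1247 genes at 0, against 438 to 638 in the others. What part proliferating cells or traits of that library have in the level of Rora was not tested. In bulk RNA fewer cells of a type cannot be told apart from less RNA per cell.

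**Figure D2:**
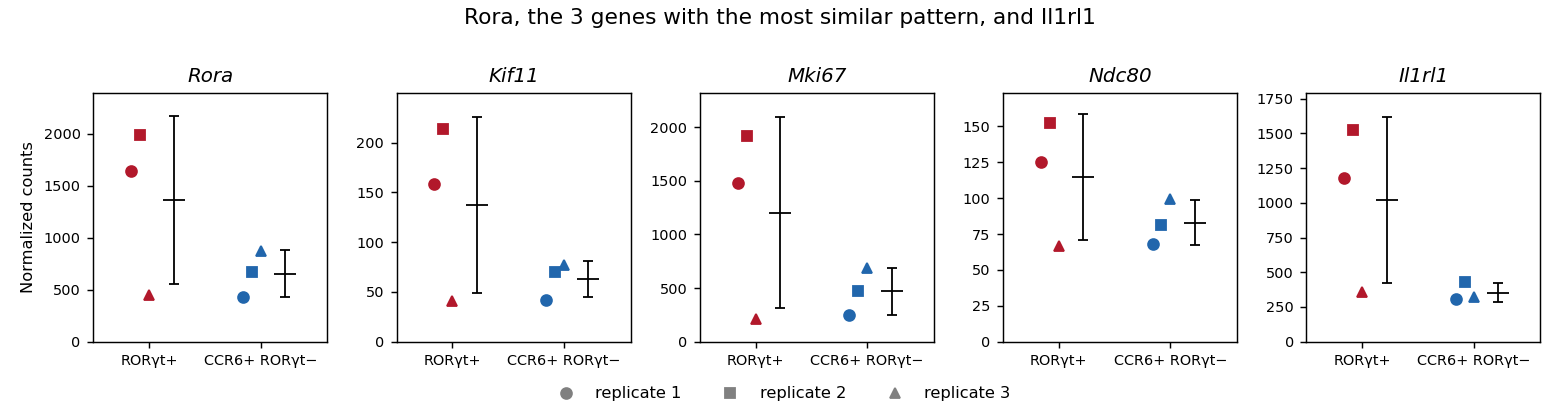
Normalized counts (vertical axes, from 0) of Rora, of the 3 genes with the highest correlation to it, and of Il1rl1 in each library, with the group mean ± SD. In all 5 genes RORγt+ replicates 1 and 2 lie above the RORγt− libraries while RORγt+ replicate 3 falls among or below them.

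Among relatives and coregulators of the ROR receptors, 1 of 15 measured genes rose, none fell and 14 did not pass, with a median log2 fold change of 0.13. The gene that rose was Nr1d1, which encodes REV-ERBα, a repressor that competes with ROR proteins for their sites. It had 264, 288 and 545 normalized counts in RORγt+ libraries and 42.6, 51.3 and 42.9 in RORγt− libraries (limma log2 fold change 2.90 ± 0.31, adjusted p = 0.0136). Unlike Rora, it was highest in RORγt+ replicate 3. Arntl and Npas2, clock genes that ROR and REV-ERB proteins are known to regulate, were higher in every RORγt+ library. Their log2 fold changes of 0.48 and 1.68 did not pass (limma adjusted p = 0.243 for both). Nfil3, a repressor gene under the same receptors, was lower in every RORγt+ library (94.2, 94.95 and 103 against 212, 133 and 155) and did not pass either. Nr1d2, which encodes REV-ERBβ, overlapped at a log2 fold change of 0.59. The coactivator and corepressor genes Ncoa1, Ncoa2, Ncoa3 and Ncor1, named later, overlapped between the groups with log2 fold changes between −0.17 and 0.35.

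Of 16 measured type 17 target genes, 7 rose and none fell, while 9 did not pass, with a median log2 fold change of 2.09. The 7 were Ccr6, Ltb4r1, Tmem176a, Il18r1, Il17re, Cxcr6 and Il23r, with log2 fold changes of 1.23 to 4.87, and Il17re and Il23r were at 0 in 2 RORγt− libraries each. This list holds genes already known to be high in these RORγt+ libraries, so it is no independent evidence of direction, and CCR6 was itself part of the RORγt− gate. Il1r1, Tmem176b, Ccl20 and Furin did not pass, with log2 fold changes of 3.90, 2.60, 2.75 and 0.56, and Ccl20 was listed at 0 in all RORγt− libraries. The type 17 cytokine genes Il17a and Il22 have no row in the table. Il17f, named later, was near the floor at 6.24 ± 5.22 and 5.86 ± 4.23 (SD, n = 3), with overlapping groups. Of the cytokine genes that c-MAF is known to promote, Il10 had 26.0 ± 10.1 and 38.2 ± 4.85 normalized counts (SD, n = 3) and Il21 9.43 ± 9.29 and 15.5 ± 4.15, both with overlapping groups and both named later.

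Hif1a, which encodes the oxygen-regulated subunit of HIF-1, was the most abundant factor by count in RORγt− Tregs. It had 3505, 3646 and 2587 normalized counts in RORγt+ replicates 1 to 3 and 3428, 4095 and 4578 in RORγt− replicates 1 to 3. The groups overlapped, since the lowest RORγt− library lay below 2 of the RORγt+ libraries. The log2 fold change was −0.32 ± 0.18 (SE), with a 95% confidence interval of −0.73 to 0.09 (limma adjusted p = 0.599), and −0.16 ± 0.13 without RORγt+ replicate 3. The gene lies on chromosome 12 (73901375 to 73947530, GRCm38), with 6.72% of its sequence windows found in other transcripts. HIF-1α is controlled largely through protein stability, so its targets were read as well. None of 18 measured HIF regulators and targets passed, and their median log2 fold change was −0.03. Egln3, a prolyl hydroxylase gene induced by HIF, was higher in every RORγt+ library (94.5, 127 and 172 against 56.3, 80.7 and 65.5, limma adjusted p = 0.304). Bnip3l was lower in every RORγt+ library (limma log2 fold change −0.43 ± 0.17, adjusted p = 0.416). Ndrg1 and Ldha, at log2 fold changes of 0.74 and 0.30, overlapped. The glucose transporter gene Slc2a1, named later, averaged 476 ± 134 and 466 ± 64.0 (SD, n = 3).

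**Figure D3:**
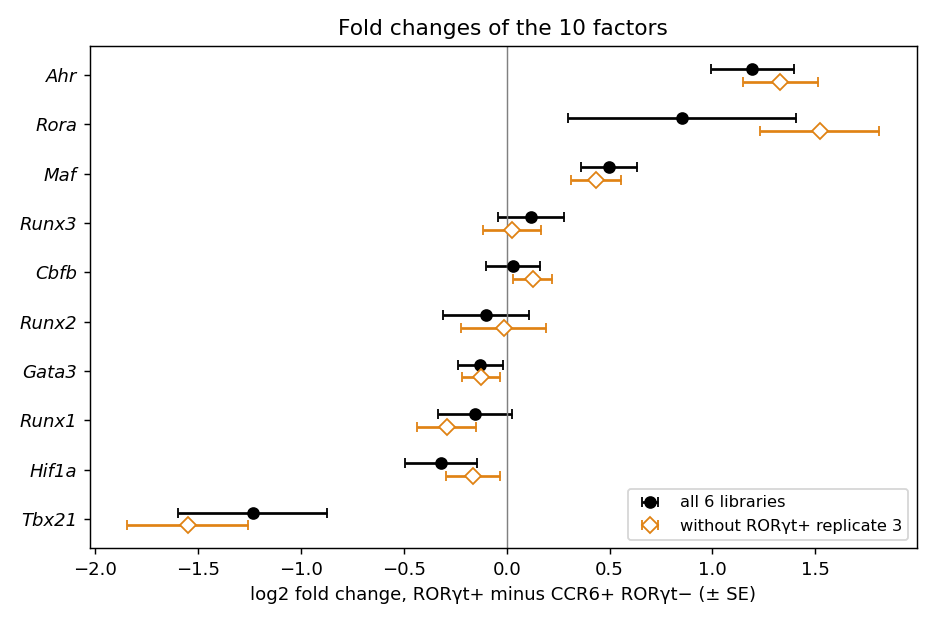
Log2 fold changes of the 10 factors, RORγt+ minus CCR6+ RORγt− (horizontal axis), with bars of ± 1 SE from limma, over all 6 libraries (filled circles) and without RORγt+ replicate 3 (open diamonds). Rora shifts most between the fits, from 0.85 to 1.52, and Tbx21 from −1.24 to −1.55.

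The lineage factors of type 1 and type 2 helper cells were both lower in every RORγt+ library, by very different amounts. Tbx21 had 30.4, 43.1 and 70.5 normalized counts in RORγt+ replicates 1 to 3 and 112, 134 and 83.6 in RORγt− replicates 1 to 3. The gap between the groups was narrow, from 70.5 to 83.6. The means were 48.0 ± 20.5 and 110 ± 25.2 (SD, n = 3), 2.29-fold apart. The log2 fold change was −1.24 ± 0.36 (SE), with a 95% confidence interval of −2.08 to −0.39 (limma adjusted p = 0.267), and −1.55 ± 0.29 without RORγt+ replicate 3 (limma adjusted p = 0.0769). With array weights the limma adjusted p was 0.0439, and over all alternatives it ranged from there to 0.685. The smallest change was −0.96, without RORγt+ replicate 1. Tbx21 was the least abundant factor by count, at about 28.8 to 56.8 reads in RORγt+ libraries and 102 to 147 in RORγt− libraries, so counting error alone is sizeable. None of its sequence windows occurs in another gene (chromosome 11, 97098071 to 97115331, GRCm38).

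Gata3 was nearly flat. It had 1432, 1458 and 1435 normalized counts in RORγt+ replicates 1 to 3, and 1587, 1487 and 1658 in RORγt− replicates 1 to 3. The RORγt+ libraries had a coefficient of variation of 0.9995%, and groups only 1.09-fold apart did not overlap. The log2 fold change was −0.13 ± 0.11 (SE), with a 95% confidence interval of −0.39 to 0.13 (limma adjusted p = 0.761), and −0.12 without RORγt+ replicate 3. The gene lies on chromosome 2, 9857078 to 9890034 (GRCm38). Gata3 thus exceeded Tbx21 in each library. Per kilobase of merged exons the log2 ratio of Gata3 to Tbx21 was 4.88, 4.40 and 3.67 in RORγt+ libraries and 3.14, 2.80 and 3.63 in RORγt− libraries. The mean log2 ratios were 4.32 ± 0.61 and 3.19 ± 0.42 (SD, n = 3), and this comparison does not depend on scaling between libraries. The exact two-sided permutation p was 0.1, the smallest that 3 against 3 libraries allow, and 0.4 after Benjamini-Hochberg adjustment over 4 such ratios.

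Type 1 genes followed no single direction. Of 14 measured T-box relatives and type 1 genes, none rose, 1 fell and 13 did not pass, with a median log2 fold change of 0.11. The chemokine gene Ccl5, a known T-bet target, fell, with 102, 115 and 74.7 normalized counts against 294, 391 and 261 (limma log2 fold change −1.69 ± 0.25, adjusted p = 0.0361). Ifng, the signature type 1 cytokine gene, had 1.04, 2.97 and 7.43 against 34.6, 36.5 and 32.95 (limma log2 fold change −3.12 ± 0.57, adjusted p = 0.0812). The IL-18 and IL-12 receptor genes Il18rap and Il12rb1 pointed the other way without passing, at log2 fold changes of 0.80 and 0.76. Cxcr3, a chemokine receptor gene activated by T-bet, had 641, 637 and 1275 against 1382, 1559 and 1150 (limma adjusted p = 0.399). As with Tbx21, its RORγt+ replicate 3 was the one nearest the RORγt− libraries, and without that replicate Cxcr3 fell (limma log2 fold change −1.08, adjusted p = 0.0339), as did Ifng (limma log2 fold change −3.65, adjusted p = 0.0259). Il18rap rose in the fit without that replicate (limma log2 fold change 0.99, adjusted p = 0.0406). Eomes, the T-box relative of Tbx21, was named later and had 42.3 ± 8.75 and 36.6 ± 11.2 (SD, n = 3).

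Of 12 measured GATA relatives and type 2 genes, 1 rose, none fell and 11 did not pass, with a median log2 fold change of 0.09. The chemokine receptor gene Ccr4, which GATA3 is known to promote, rose, with 2072, 2293 and 2994 normalized counts against 641, 673 and 515 (limma log2 fold change 1.999 ± 0.18, adjusted p = 0.00950). Ccr8, another receptor gene of type 2 cells and Tregs, had the opposite sign (71.5, 87.9 and 82.1 against 179, 212 and 173, limma adjusted p = 0.0593). Zfpm1, which encodes the GATA cofactor FOG-1, and Areg, which encodes the repair factor amphiregulin, were lower in every RORγt+ library at log2 fold changes of −0.61 and −1.06 (limma adjusted p = 0.329 for both). The cytokine genes Il5 and Il13 have no row in the table, and Il4 had 0.65 ± 1.13 and 4.36 ± 1.57 (SD, n = 3).

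The 3 RUNX genes encode proteins with a nearly identical DNA-binding Runt domain, and their coding sequences remain close there. The most conserved 60-base stretch of coding sequence, found by script in GENCODE M21 transcripts, is printed 5′ to 3′ on the coding strand to show how closely related genes could still be counted apart. It has the same base in all 3 genes at 54 positions, and capitals mark the 6 positions that differ. It lies in exon 3 of the Runx1 transcript (chr16:92695505-92695564, minus strand), exon 3 of the Runx2 transcript (chr17:44735254-44735313, minus strand) and exon 2 of the Runx3 transcript (chr4:135152976-135153035, plus strand), in GRCm38.
Runx1: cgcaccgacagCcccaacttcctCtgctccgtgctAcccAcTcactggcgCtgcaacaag
Runx2: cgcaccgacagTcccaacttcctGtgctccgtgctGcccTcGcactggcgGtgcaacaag
Runx3: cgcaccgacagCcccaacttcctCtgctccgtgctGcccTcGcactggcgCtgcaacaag
Runx1 and Runx3 share 9 windows of 31 bases over all their transcripts, and Runx2 shares none with either. Of all windows, 0.795% of Runx1, 6.39% of Runx2 and 1.44% of Runx3 occur in any other gene, those of Runx2 mainly in an antisense model.

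The RUNX genes and Cbfb differed little between the groups. Runx1, which encodes a partner of both RORγt and Foxp3, had 1174, 861 and 1341 normalized counts in RORγt+ replicates 1 to 3 and 1202, 1283 and 1212 in RORγt− replicates 1 to 3. The RORγt− libraries lay within the range of the RORγt+ libraries. Its log2 fold change was −0.15 ± 0.18 (SE), with a 95% confidence interval of −0.57 to 0.26 (limma adjusted p = 0.837), and the sign turned without RORγt+ replicate 2 (0.03). Runx3, which supports CD8 lineage and type 1 programmes and is the main RUNX gene in many mature T cells, had 706, 882 and 956 against 712, 759 and 861. The groups overlapped almost fully, at 0.12 ± 0.16 with a 95% confidence interval of −0.26 to 0.49 (limma adjusted p = 0.870). Runx2, best known from bone, had 225, 269 and 206.5 against 207, 241 and 308, the lowest values of the family. Its log2 fold change was −0.10 ± 0.21 with a 95% confidence interval of −0.59 to 0.39 (limma adjusted p = 0.931), and 0.05 without RORγt− replicate 3. Without RORγt+ replicate 3 the log2 fold changes were −0.29 for Runx1, −0.015 for Runx2, 0.025 for Runx3 and 0.13 for Cbfb. Cbfb, the gene of their common partner, had 1922, 1914 and 1576 against 1764, 1638 and 1877. Its log2 fold change was 0.03 ± 0.13 with a 95% confidence interval of −0.28 to 0.34 (limma adjusted p = 0.971). Its sign turned under upper-quartile scaling and when any of 3 single libraries was left out, with values between −0.019 and −0.014. For the 4 genes these intervals leave room for changes of up to about 0.59 on the log2 scale.

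By share of the summed RUNX level per kilobase of merged exons, Runx3 led in every library. It took 53.4%, 63.3% and 58.6% in RORγt+ libraries and 53.6%, 53.1% and 55.9% in RORγt− libraries. Runx1 took 37.0%, 25.7% and 34.2% against 37.6%, 37.4% and 32.7%, and Runx2 the rest. The Runx3 share differed by 4.25 percentage points, less than the SD of 4.97 within the RORγt+ group. Without RORγt+ replicate 2 that difference was 1.82 points, and without RORγt+ replicate 1 it was 6.78. The exact two-sided permutation p was 0.3 for Runx3, 0.5 for Runx1 and 0.7 for Runx2, or 0.6, 0.667 and 0.7 after adjustment over the 4 ratios. The order of Runx1 and Runx3 depends on the gene length used. Divided by the longest transcript, their mean shares were 42.8% and 48.9% in RORγt+ libraries and 46.9% and 44.5% in RORγt− libraries.

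RefSeq promoters were found for 8 of the 10 factors, with 2 start sites each for Runx1 and Runx3 (GRCm38.p6). The 250 bases before each start site were searched on both strands for the RUNX core TGTGGT and the ROR core site AGGTCA. The distal Runx3 promoter and the Runx2 promoter are printed because they hold RUNX cores, that is, letters that the family's own proteins recognise. They are given 5′ to 3′ on the gene's strand, with both kinds of match in capitals.
Runx3 distal promoter, chr4:135120395-135120644, plus strand: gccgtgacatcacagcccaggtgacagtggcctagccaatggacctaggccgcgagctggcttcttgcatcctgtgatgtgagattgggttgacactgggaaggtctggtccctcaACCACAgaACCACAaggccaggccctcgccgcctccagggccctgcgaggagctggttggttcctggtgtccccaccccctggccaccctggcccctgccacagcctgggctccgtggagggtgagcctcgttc
Runx2 promoter, chr17:44814628-44814877, minus strand: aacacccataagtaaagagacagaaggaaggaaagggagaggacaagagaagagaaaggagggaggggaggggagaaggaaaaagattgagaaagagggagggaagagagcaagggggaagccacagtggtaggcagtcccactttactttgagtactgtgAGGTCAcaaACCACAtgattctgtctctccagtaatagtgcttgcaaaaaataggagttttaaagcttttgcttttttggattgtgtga
The Runx3 window holds 2 RUNX cores on the reverse strand, which end 128 and 120 bases before the start site. At least 2 such cores occur in 1.27% of 32851 promoter windows. The Runx2 window holds 1 RUNX core, which ends 74 bases before the start site, and a ROR core site 83 bases before it. Each of these motifs occurs at least once in 14.0% of promoter windows, and the matches do not overlap each other. Of the other promoters of the factors, Hif1a alone has a match, 1 ROR core site. The Hif1a start site used (73907867) lies inside the gene span given above. Unlike at the other promoters, the bases checked downstream of it occur in no GENCODE M21 transcript of the gene. A match is a description of the letters and says nothing of binding in these cells.

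Of 19 measured RUNX cofactors and textbook targets, 1 rose, none fell and 18 did not pass, with a median log2 fold change of 0.004. Itgae, which encodes the αE integrin CD103 and is known to depend on RUNX3, rose, with 2096, 2337 and 1894 normalized counts against 749, 852 and 655 (limma log2 fold change 1.49 ± 0.15, adjusted p = 0.0120). Tle3, a corepressor gene, and Bcl11b, a T cell identity gene, were lower in every RORγt+ library without passing, at log2 fold changes of −0.37 and −0.29. Tle2 was higher in every RORγt+ library (11.95, 8.85 and 57.1 against 5.95, 0.88 and 8.47), with replicate 3 far above the rest. Smurf2, which encodes a ubiquitin ligase for RUNX proteins, overlapped at −0.28.

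**Figure D4:**
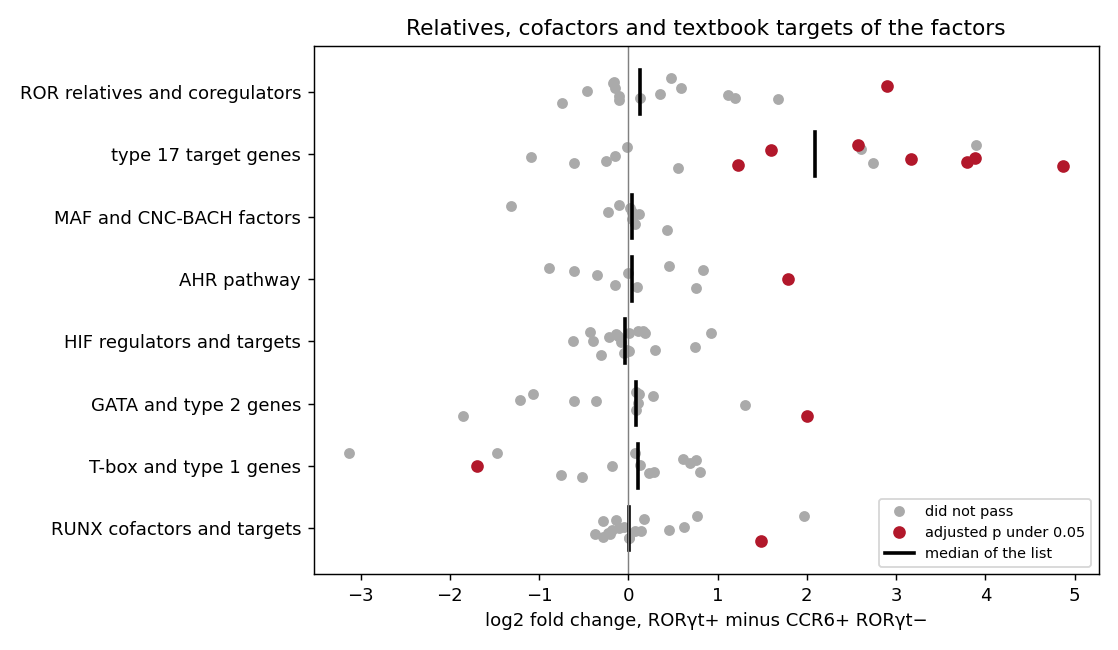
Log2 fold changes, RORγt+ minus CCR6+ RORγt− (horizontal axis), of the measured genes in 8 lists of relatives, cofactors and textbook targets of the factors. Each point is a gene, red where the limma adjusted p was under 0.05, and the bar is the list's median. Only the median of the type 17 targets (2.09) lies away from 0, the other 7 between −0.03 and 0.13.

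Levels of the factors were compared with each other per kilobase of merged exons. In RORγt+ Tregs Hif1a, Cbfb and Maf came first, at 551 ± 97.6, 518 ± 56.7 and 501 ± 67.9 normalized counts per kilobase (SD, n = 3), and their library ranges overlapped. Gata3 followed at 362 ± 3.62, apart from its neighbours. Runx3 (169 ± 25.7), Rora (104 ± 61.9), Runx1 (93.6 ± 20.3) and Ahr (85.4 ± 13.8) came next, each overlapping the one after it. Runx2 (26.4 ± 3.65) and Tbx21 (19.3 ± 8.25) came last and overlapped. In RORγt− Tregs the order was Hif1a (684 ± 97.9), Cbfb (506 ± 34.5), Gata3 (397 ± 21.5), Maf (352 ± 17.1), Runx3 (155 ± 15.2) and Runx1 (102 ± 3.68), with no overlap between neighbours. Rora (50.2 ± 16.99), Tbx21 (44.2 ± 10.1), Ahr (37.3 ± 6.50) and Runx2 (28.5 ± 5.80) followed, each overlapping the next. The 2 orders of means thus differ in Maf against Gata3, in Rora against Runx1, and in Tbx21 against Ahr and Runx2. Of these pairs, only Maf and Gata3 had library ranges without overlap in both groups. Per kilobase of the longest transcript Runx1 lay above Rora in both groups. There Runx1 and Runx3 exchanged places between the groups instead, and Maf lay above Cbfb in RORγt+ Tregs.

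**Figure D5:**
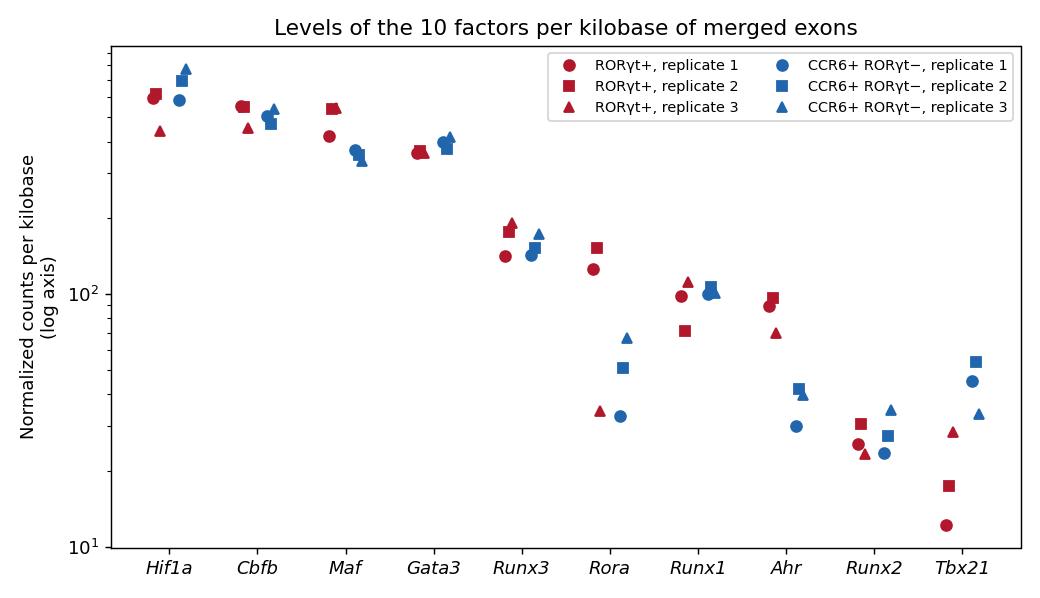
Normalized counts per kilobase of merged exons (vertical log axis) of the 10 factors in each library, ordered by the RORγt+ mean, with a colour for each group and a symbol for each replicate number. Hif1a, Cbfb, Maf and Gata3 lie above 300 in every library, and Runx2 and Tbx21 below 60.

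Over the 6 libraries the genes most like Tbx21, the factor with the largest absolute log2 fold change in the fit over all libraries, were Dtx4, Angptl2 and Bcl2a1b (Pearson r of 0.999, 0.996 and 0.995 on the log2 scale). Dtx4 had 180, 220 and 308 normalized counts in RORγt+ libraries and 411, 472 and 333 in RORγt− libraries, in the same order of libraries as Tbx21 and without overlap. The lead of Tbx21 over Ahr in size of change (−1.24 against 1.19) turned with a pseudocount of 5 and with scaling to column totals. It also turned without RORγt+ replicate 1 and without RORγt− replicate 2. Of 10332 candidates, 215 (2.08%) had an r above 0.9 with Tbx21. The same comparison for Ahr, made after its values were seen, gave Anxa1, Crybg3 and Ccr2 (r of 0.998, 0.997 and 0.995), and 1.75% of candidates had an r above 0.9. Anxa1, which encodes annexin A1, had 123, 169 and 61.1 against 3.69, 14.9 and 10.03, and Ccr2 2854, 3113 and 1251 against 119, 244 and 186. Both were lowest within RORγt+ libraries in replicate 3, as Ahr was. The points share library and depth, so these are descriptions with no test.

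Several of the factors are also expressed by other cells that a sort could hold, and markers of those cells were read beside them. Of 7 markers of γδ and innate type 17 cells, which express Rora and Maf, 5 had a row in the table and 0 passed the test. All 5 had a positive log2 fold change, and the median was 0.93. Of the 5, 3 (Trdc, Kit and Cd163l1) were higher in every RORγt+ library, as were 8.31% of all genes. Kit had 16.5, 31.9 and 18.75 against 2.99, 1.76 and 6.06 (limma log2 fold change 2.40 ± 0.53, adjusted p = 0.142). The log2 fold change of Trdc was 0.69. That of Cd163l1 was 2.30, with a value of at most 11.04. The summed level of the 5 was 130 to 146 normalized counts in RORγt+ libraries and 54.5 to 79.6 in RORγt− libraries. Most of it was Trdc, and Cd163l1 was at 0 in 2 RORγt− libraries. Of 7 monocyte and macrophage markers, which accompany high Maf and Hif1a, 3 had a row and 0 passed. Of the 3, 2 (Itgam and Csf1r) were higher in every RORγt+ library, as were 8.31% of all genes. Csf1r had at most 9.04 normalized counts. The median log2 fold change of the 3 was 1.39. Their sum was 100, 136 and 41.3 in RORγt+ replicates 1 to 3, and 19.8 to 43.0 in RORγt− libraries. Among RORγt+ libraries the sum was highest in replicate 2 and lowest in replicate 3, where Maf had similar values (4418 and 4481). For the 7 markers of CD8 T and NK cells, which express Tbx21 and Runx3, the sum was 322 to 352 against 309 to 408, 0 passed, and Ncr1 was at 0 in 3 libraries. Of the 7, 5 had a positive log2 fold change, and the median was 0.23. Prf1 alone was lower in every RORγt+ library (97.1, 114 and 108 against 146, 135.5 and 151), as were 9.81% of all genes. Of 6 markers of type 2 innate cells and granulocytes, which express Gata3, Il1rl1 and Hpgds had a row, and Il1rl1 is also expressed by Tregs. Their sum was 387 to 1606 against 400.1 to 519, following Il1rl1, and 0 passed. The 6 B cell markers, mostly Ighm, summed to 7126 to 10786 against 8911 to 10388 and 0 passed. The part of such cells in the levels of the factors was not tested.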

How the data were processed

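The deposited table holds 1 signal value per gene and library, which are normalized counts to 2 decimals. Per the submitters' processing notes, Salmon 1.2.0, DESeq2 and GRCm38 were used, with no role or order stated. The sources used here do not give the annotation, filters or strand setting. Reads were estimated from the spacing of low values, of which 57.6% to 71.9% lay within 0.1 read of a whole number, so no count model was run.

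Values were analysed as log2(value + 1) over 15944 genes with limma 3.58.1 in R 4.3.3 (trend, two-sided, Benjamini-Hochberg). Fold changes understate low genes. Positions, lengths and symbols missing from the table came from GENCODE M21, which held 15851 of the gene identifiers. The fit was tested on simulated data with known differences. It picked up 30 out of 100 differences that were 2-fold in size. Where the size was 4-fold, it found 68 out of 100. Among its 103 calls, 5 were false. A gene that did not pass may thus still differ by such amounts. No simulated library stood apart as RORγt+ replicate 3 did, and the genes of lowest mean were given no difference. These rates therefore need not hold for the real libraries.

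Members, lists, tests and alternatives were chosen with earlier results of these data known. Named genes were the 10 factors, sort markers, the called genes and up to 4 others of smallest adjusted p per list, and the 3 genes most like the factor with the largest change; others are marked as named later. Some results are not reported here. Intervals cover the spread between libraries.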

Additional observations from a re-analysis of the deposited data

How the results depend on the processing

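Each of the 10 factors was refitted under 15 alternatives. Ahr, Maf, Rora, Runx3, Hif1a, Gata3 and Tbx21 kept their sign in all 15. Cbfb (0.126 at most, without RORγt+ replicate 3) turned under upper-quartile scaling (−0.017), without RORγt+ replicate 1 (−0.017) or 2 (−0.014) and without RORγt− replicate 2 (−0.019), Runx1 without RORγt+ replicate 2 (0.026; lowest −0.293, without RORγt+ replicate 3), and Runx2 without RORγt− replicate 3 (0.054; lowest −0.231, without RORγt− replicate 1). With array weights, which gave RORγt+ replicate 3 a weight of 0.199, 2 factors passed, Ahr (adjusted p = 0.0116) and Tbx21 (adjusted p = 0.0439). In that fit 358 genes passed over the whole table, 170 higher and 188 lower, and 21 of the related lists against 12. Leaving out a library gave 0 to 1 of the factors (Ahr without RORγt+ replicate 3), 0 to 15 related genes, and 4 to 174 genes in all, of them 1 to 85 higher and 0 to 89 lower. The adjusted p over the alternatives was 0.0116 to 0.296 for Ahr, 0.0439 to 0.685 for Tbx21 and 0.0769 to 0.939 for Rora. The cause was not tested. Other pseudocounts, scalings, a filter at a mean of 10 and robust variances gave 0 of the factors and 84 to 103 genes. With a replicate block, 0 factors, 0 related genes and 1 gene in all passed (1 higher, 0 lower). Deviations of libraries with 1 number in common correlated at −0.184 to −0.022, none best with its own number, and the numbers were not taken to pair them. With 3 libraries per group, centred on their own mean, this check cannot decide whether the libraries were paired. The difference in Runx1 share went from −3.60 points to −0.32 without RORγt+ replicate 2, and that in Runx3 share from 4.25 to 1.82 without replicate 2 and 6.78 without replicate 1 of that group. That in Runx2 share turned from −0.65 to 0.39 without RORγt+ replicate 3 and 0.063 without RORγt− replicate 3. The difference in the log2 ratio of Gata3 to Tbx21 was 0.85 to 1.45 without each library.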
